A study of Homo sapiens with 14 samples.

Results

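PANC-1 cells that had been in grape proanthocyanidins (PA) for 24 h were compared with PANC-1 cells that had been in PA for 3 h, so that the measurement was the change over time within PA exposure. The comparison took every row of the deposited count table in the 4 PA libraries of these times, lettered A and B at each time, out of 14 libraries in all. The table listed 2848 mature miRNA entries, of which 2321 had at least 1 count in the 4 libraries and 810 had enough counts across the groups to be tested. PANC-1 is an established human line from a pancreatic ductal carcinoma, here grown as a monolayer in medium with fetal bovine serum. PA are oligomers and polymers of flavan-3-ols and were given at 20 µg/ml. The groups used were PA for 3 h, 12 h and 24 h, and the vehicle DMSO for 0 h, 3 h, 12 h and 24 h, with 2 libraries each. No untreated 0 h library of PA cells entered the comparison, and all groups share the line and the medium. The series' design text speaks of a biological replicate, but no label gives the cultures of A and B as separate, so p-values measure the spread between these libraries, which may be technical.

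A miRNA is cut from a hairpin in a primary transcript, first by Drosha in the nucleus and then by Dicer in the cytoplasm. Either arm of the hairpin can be loaded into an Argonaute protein, the 5p arm from the 5′ side or the 3p arm from the 3′ side, and the arm that is loaded less often is usually degraded fast. The loaded miRNA finds its messenger RNAs mainly through its seed, bases 2 to 8, and lowers their stability and translation. In pancreatic carcinoma cells miR-21-5p and miR-29a-3p are abundant, as are members of the miR-100 and miR-27 families, while many deposited miRNA names belong to rare sequences, some of which lie inside longer RNAs.

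The mature sequences shown belong to some of the miRNAs that passed the test between 24 and 3 h of PA. These sequences were chosen from those whose seed, host transcript, length or arm is described below. They come from RefSeq (GRCh38.p14), which held 22 of the 24 named miRNAs that passed. They are written 5′ to 3′, with the seed in capitals. The first set rose, and the relatives with the same seed are given beside them because their levels are compared below.
miR-99b-5p: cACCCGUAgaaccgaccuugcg
miR-100-5p: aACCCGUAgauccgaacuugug
miR-99a-5p: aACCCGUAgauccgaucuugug
miR-409-5p: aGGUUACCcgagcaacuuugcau
miR-1271-5p: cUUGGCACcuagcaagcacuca
miR-96-5p: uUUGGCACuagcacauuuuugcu
miR-1271-3p: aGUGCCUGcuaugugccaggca
miR-7704: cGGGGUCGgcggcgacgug
miR-3182: gCUUCUGUaguguaguc
miR-4443: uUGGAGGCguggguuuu
miR-4454: gGAUCCGAgucacggcacca
miR-6069: gGGCUAGGgccugcugccccc

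The second set fell. It holds, of the 8 named falls, 5 arms of hairpins whose other arm is known as the main product, and 1 short sequence.
let-7i-3p: cUGCGCAAgcuacugccuugcu
let-7a-2-3p: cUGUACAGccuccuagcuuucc
miR-146a-3p: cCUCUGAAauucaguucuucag
miR-20a-3p: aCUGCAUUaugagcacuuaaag
miR-335-3p: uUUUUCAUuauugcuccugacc
miR-4455: aGGGUGUGuguguuuuu

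The other miRNAs that passed are given by name only, as are the unnamed entries. Unnamed entries, chr8_19924 among them, are called by a chromosome or scaffold with a running number, and they made up 128 of the 810 tested entries.

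Library totals were 2816062 and 1236935 counts for PA 24 h A and B, against 2420626 and 3111014 counts for PA 3 h A and B. The other 10 libraries held 1032391 to 2762869 counts. Levels are given as CPM, the count scaled by the library total after TMM normalisation. The A and B libraries were less alike at 24 h of PA than at 3 h, with a median absolute log2 difference between them of 0.409 at PA 24 h and 0.233 at PA 3 h. Of all groups DMSO 12 h had the largest such difference, 0.498, and both of its libraries entered the fit of all 14 libraries. On the first principal component of all 14 libraries (21.5% of the variance) DMSO 12 h B lay at 22.8. DMSO 12 h A also lay far above the other 12, which reached at most 1.17. On the second component (19.1% of the variance) PA 24 h B lay at 19.8 and PA 24 h A at 8.56. All libraries but these PA 24 h libraries lay between -10.04 and 6.99 on it. Defining haematopoietic, muscle, liver, neuron, acinar and islet markers were scarce. The 4 haematopoietic markers summed to 3.21 and 1.68 CPM at PA 24 h, against 2.09 and 2.37 CPM at PA 3 h, and sums of muscle, liver and neuron markers and of acinar and islet markers stayed under 10 CPM in the 4 libraries, with miR-150-5p, miR-206 and miR-216a-5p at 0 counts. The 9 fibroblast and endothelial markers summed to 1348 and 1234 CPM at PA 24 h, against 1340 and 1543 CPM at PA 3 h. The 4 red blood cell markers, miR-486-5p for the most part, summed to 554 and 503 CPM at PA 24 h, against 296 and 388 CPM at PA 3 h, and their part in the results was not tested.

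Between 24 and 3 h of PA, 32 of the 810 entries passed an adjusted p of 0.05 (3.95%), 22 of them higher at 24 h (2.72%) and 10 lower (1.23%). The test was edgeR's quasi-likelihood F test with Benjamini-Hochberg adjustment, in a fit of all 14 libraries. Without adjustment, 151 entries had a p under 0.05, 92 of them higher at 24 h and 59 lower. In all 32 the 24 h and 3 h libraries did not overlap, a pattern also seen upward in 196 tested entries (24.2%) and downward in 195 (24.1%). The median log2 fold change over all tested entries was 0.03, and the median size of a change was 0.37 on the log2 scale. The median over all tested entries was -0.079 without PA 24 h A and -0.062 without PA 24 h B. It was 0.016 and 0.038 with PA 3 h A and B left out, and -0.041 with total-count scaling. In total RNA from bulk cells, fewer cells that express a miRNA and less of it per cell cannot be told apart.

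The number that passed rested on single libraries. It was 9 without PA 24 h B (8 of the 32 among them), 1 with PA 3 h A left out, 3 with PA 3 h B left out, 43 without PA 24 h A (21 of the 32 among them) and 49 without DMSO 12 h A or without DMSO 12 h B, where a lone library of a group is taken to vary like the other groups. Of the 32, 31 lost their call when PA 3 h A was left out, 29 when PA 3 h B was, 24 without PA 24 h B and 11 without PA 24 h A, and 0 changed direction under any setting tried. When scaled by total counts instead of TMM, 32 entries passed with 18 higher and 14 lower, 28 of the 32 among them. With only the 4 libraries compared 15 rises and 5 falls passed (18 of the 32 among them), and with only the 6 PA libraries 25 and 6 (27 among them).

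**Figure D1:**
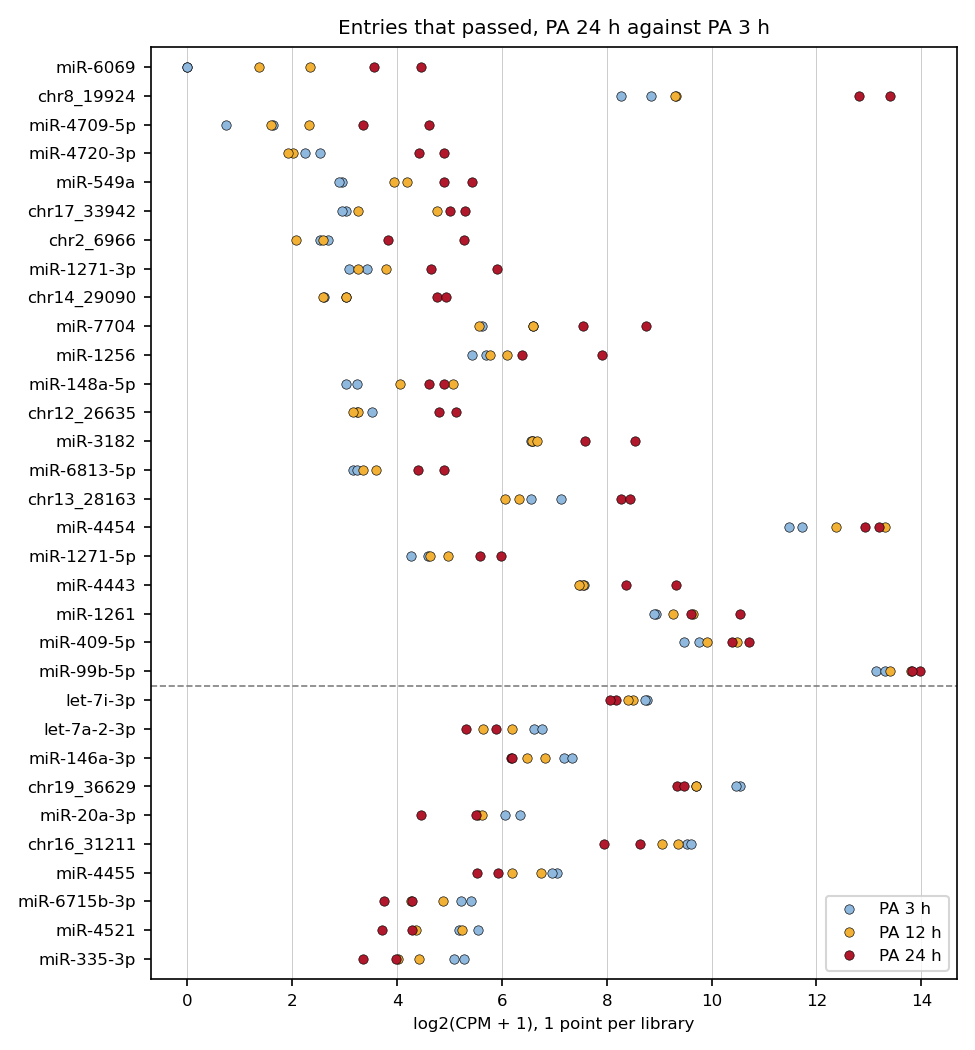
Levels of the 32 entries that passed between PA 24 h and PA 3 h, as log2(CPM + 1) on the horizontal axis, with 1 point per PA library at 3, 12 and 24 h. Above the dashed line stand the 22 that rose and below it the 10 that fell, and in every row the 24 h points lie apart from the 3 h points.

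The entry with the most extreme adjusted p was chr8_19924, a sequence without a miRNA name. It had 7202 and 10812 CPM in the PA 24 h libraries, against 461 and 309 CPM in the PA 3 h libraries. Both 24 h libraries stood far above both 3 h libraries, a 23.4-fold difference (log2 fold change 4.55 ± 0.35 SE, edgeR adjusted p = 1.19e-06). By its mean over the 4 libraries it ranked 33 of the 810. In DMSO it had 25.0 and 21.2 CPM at 24 h, against 87.8 and 33.9 CPM at 3 h. It was the only one of the 32 that passed with each of the 14 libraries left out in turn, with log2 fold changes of 4.19 to 4.86 when a PA 24 h or PA 3 h library was missing.

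Among the rises, miR-99b-5p was the most abundant. It shares its seed with miR-100-5p and miR-99a-5p, a family known to target MTOR, and its hairpin lies at chr19:51692612-51692681 (GRCh38, plus strand) in an intron of SPACA6, in a cluster with let-7e and miR-125a. Its level was 16169.5 and 14478 CPM at PA 24 h, against 8981 and 10134 CPM at PA 3 h. That was a 1.60-fold rise (log2 fold change 0.68 ± 0.16 SE, edgeR adjusted p = 0.0277), with no overlap between the times. The call was lost without any 1 of the PA libraries, DMSO 24 h B or either DMSO 0 h library. Its relatives had positive log2 fold changes that did not pass, 0.60 ± 0.27 for miR-99a-5p (adjusted p = 0.244) and 0.35 ± 0.15 for miR-100-5p (adjusted p = 0.229).

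miR-409-5p, from the imprinted miRNA cluster at 14q32 (chr14:101065300-101065378, GRCh38, plus strand, in an intron of MEG9), had 1678 and 1337 CPM at PA 24 h, against 710 and 862 CPM at PA 3 h. The lower 24 h library exceeded the higher 3 h library, and the log2 fold change was 0.94 ± 0.21 (SE, adjusted p = 0.0205). The call was lost when PA 24 h A, PA 3 h A or PA 3 h B was left out.

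Both arms of miR-1271 rose. This miRNA lies in an intron of ARL10 on chromosome 5, and its 5p arm has the seed of miR-96-5p. miR-1271-5p had 46.9 and 62.2 CPM at PA 24 h, against 23.0 and 18.3 CPM at PA 3 h (log2 fold change 1.39 ± 0.29 SE, adjusted p = 0.0147). miR-1271-3p had 24.1 and 58.9 CPM at PA 24 h, against 7.52 and 9.82 CPM at PA 3 h (log2 fold change 2.20 ± 0.44, adjusted p = 0.0133). The 24 h libraries of either arm lay above both 3 h libraries, with PA 24 h B the higher. Without PA 24 h B the log2 fold change of miR-1271-3p was 1.42 and did not pass (adjusted p = 0.113). Either arm also lost its call when PA 3 h A or B was left out, and miR-1271-5p when PA 24 h B was. miR-96-5p itself, a miRNA of the miR-183 cluster with roles in hearing and in cancer growth, had 8951 and 4496 CPM at PA 24 h, against 4080 and 4518 CPM at PA 3 h. Its libraries overlapped and it did not pass (log2 fold change 0.65 ± 0.30 SE, adjusted p = 0.251).

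Several of the rising names belong to sequences inside longer RNAs. miR-7704 lies at chr2:176188843-176188901 (GRCh38, plus strand), within coding sequence of an exon of HOXD1 and opposite an exon of HAGLR. Its reads cannot be told from pieces of the HOXD1 transcript, which is of the same strand. miR-7704 had 185 and 431 CPM at PA 24 h, against 95.6 and 48.4 CPM at PA 3 h (log2 fold change 2.09 ± 0.43 SE, adjusted p = 0.0147). Both 24 h libraries were higher, B by far. Without PA 24 h B its log2 fold change was 1.33 (adjusted p = 0.141), with PA 3 h A left out it was 2.66 (adjusted p = 0.0622) and with PA 3 h B left out it was 1.68 (adjusted p = 0.164).

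miR-4454, whose sequence overlaps that of a transfer RNA, had 7769 and 9322 CPM at PA 24 h, against 2855 and 3391 CPM at PA 3 h. All 24 h values were more than those at 3 h, 2.74-fold on average (log2 fold change 1.45 ± 0.34 SE, adjusted p = 0.0277). DMSO showed a difference of like size, 6914 and 5350 CPM at 24 h against 2487 and 2921 CPM at 3 h, which did not pass (1.18 ± 0.34, adjusted p = 0.123). The 14 tested entries that overlap other small RNAs, which include transfer RNA and ribosomal RNA, had a median log2 fold change of 0.11 within PA, and miR-4454 was the 1 that passed. Without PA 24 h B their median was -0.22 and none passed. The call of miR-4454 was lost when PA 24 h B, PA 3 h A or B, or DMSO 24 h A or B was left out.

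miR-3182, of 17 bases and from an intron of CDH13 (chr16:83508346-83508408, GRCh38, plus strand), had 191 and 371 CPM at PA 24 h, against 93.1 and 95.5 CPM at PA 3 h. It was higher in both 24 h libraries (log2 fold change 1.56 ± 0.26 SE, adjusted p = 0.00314), and its call was lost when PA 3 h A or B was left out. miR-4443, also of 17 bases, had 328 and 636 CPM at PA 24 h, against 190 and 178 CPM at PA 3 h (1.38 ± 0.34, adjusted p = 0.0337). miR-1261 had 779 and 1496 CPM at PA 24 h, against 487 and 476 CPM at PA 3 h (1.24 ± 0.32, adjusted p = 0.0389). For both of these PA 24 h B was far above PA 24 h A. Neither passed when PA 24 h B, PA 3 h A or B, DMSO 24 h A or B, or DMSO 3 h B was left out, with total-count scaling, with limma-voom, among named entries only or with only the 4 libraries compared, and miR-1261 failed also when DMSO 3 h A was left out. miR-1256, from an intron of EIF4G3, had 83.0 and 240 CPM at PA 24 h, against 51.0 and 42.0 CPM at PA 3 h (1.77 ± 0.36, adjusted p = 0.0147), and its log2 fold change was 0.80 without PA 24 h B (adjusted p = 0.141). Its call was also lost when PA 3 h A or B was left out.

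Most of the remaining rises were of rare sequences. miR-6069, which lies opposite an intron of TOM1 on chromosome 22, had no counts at 3 h and 52 counts at 24 h. That is 10.8 and 21.0 CPM in the PA 24 h libraries, against 0 in both PA 3 h libraries. Taking a floor of 3 counts over the 3 h group, it was 25.2-fold higher at PA 24 h (edgeR adjusted p = 0.00862). The counting interval of the ratio, which also takes in the error of the 52 counts, starts at 19.8. The call was lost without PA 24 h B (adjusted p = 0.054) and when PA 3 h A or B was left out (adjusted p = 0.102 and 0.12). miR-549a had 28.9 and 42.0 CPM at PA 24 h, against 6.68 and 6.43 CPM at PA 3 h (2.41 ± 0.36 on the log2 scale, adjusted p = 0.00256). Both 24 h libraries stood far above both 3 h libraries, and the call was lost when PA 3 h A (adjusted p = 0.0622) or B (adjusted p = 0.0555) was left out.

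In miR-4709-5p, from an exon of NPC2, the counts were lower still, with 9.22 and 23.5 CPM at PA 24 h, against 2.09 and 0.677 CPM at PA 3 h (3.51 ± 0.85 on the log2 scale, adjusted p = 0.0296). Its log2 fold change was 2.70 without PA 24 h B, 4.43 with PA 3 h A left out and 2.89 with PA 3 h B left out, none of which passed. miR-4720-3p had 20.5 and 28.6 CPM at PA 24 h, against 3.76 and 4.74 CPM at PA 3 h (2.49 ± 0.55, adjusted p = 0.0205). miR-148a-5p, the less abundant arm of miR-148a, had 23.3 and 28.6 CPM at PA 24 h, against 7.10 and 8.46 CPM at PA 3 h (1.71 ± 0.42, adjusted p = 0.0308). miR-6813-5p, from an intron of RGS19, had 20.1 and 28.6 CPM at PA 24 h, against 7.93 and 8.46 CPM at PA 3 h (1.54 ± 0.39, adjusted p = 0.0344). In each of these 4 the times did not overlap. The calls of the last 3 were lost when PA 24 h B, PA 3 h A or PA 3 h B was left out. Those of miR-148a-5p and miR-6813-5p were lost also without PA 24 h A, and that of miR-6813-5p also without either PA 12 h or DMSO 24 h library. miR-6813-5p also failed with total-count scaling, no filter on low counts, DESeq2, named entries only and only the 4 libraries compared.

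The unnamed entries gave 6 of the 22 rises and 2 of the 10 falls. Besides chr8_19924 the rises were chr17_33942, chr2_6966, chr14_29090, chr12_26635 and chr13_28163, with log2 fold changes of 1.496 to 2.32. chr13_28163 had 306 and 348 CPM at PA 24 h, against 92.7 and 138 CPM at PA 3 h (1.496 ± 0.24, adjusted p = 0.00312). It did not pass without PA 3 h A (adjusted p = 0.102) and passed without any other library. For chr2_6966 the log2 fold change of 2.26 was 1.34 without PA 24 h B, where it did not pass. The calls of chr17_33942, chr2_6966, chr14_29090 and chr12_26635 were each lost when PA 24 h B, PA 3 h A or PA 3 h B was left out. Those of chr17_33942, chr14_29090 and chr12_26635 were lost also without PA 24 h A. Those of chr17_33942 and chr2_6966 were lost also without either DMSO 24 h library. chr17_33942 failed also with total-count scaling and limma-voom, and chr2_6966 with only the 4 libraries compared. Over all 128 unnamed entries tested, the median log2 fold change was 0.28, and 25 were higher and 8 lower at an unadjusted p under 0.05.

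The rises spanned rare and abundant entries. Of the 22, 4 had a mean above 1000 CPM (chr8_19924, miR-4454, miR-409-5p and miR-99b-5p), as did 84 of the 810 tested entries, and 12 stayed below 100 CPM at PA 24 h. PA 24 h B was the higher of the 2 PA 24 h libraries in 18 of the 22 rises, against 422 of all 810 tested entries. Its part in these rises beyond the values without it was not tested.

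**Figure D2:**
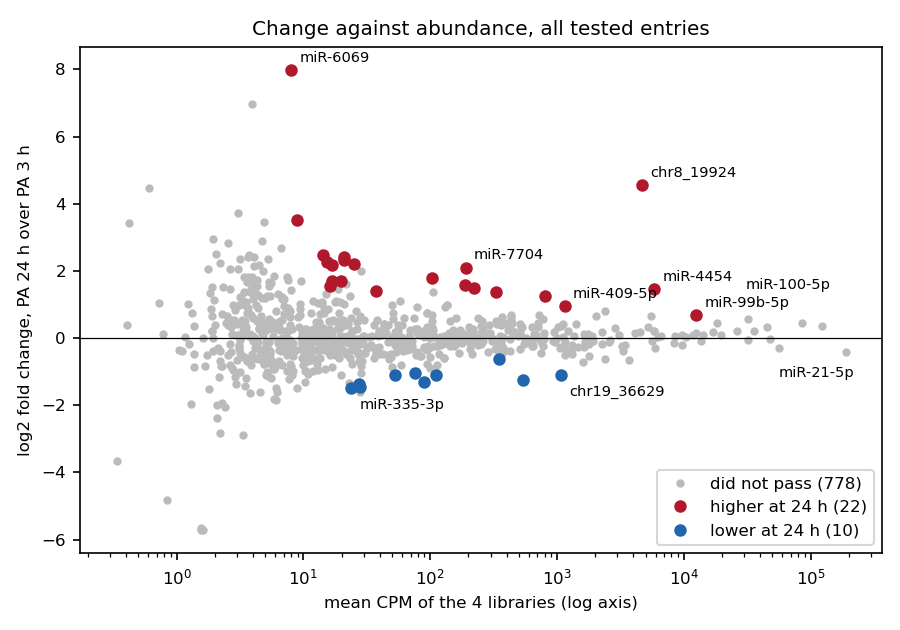
Log2 fold change of PA 24 h over PA 3 h against the mean CPM of the 4 libraries (log axis) for all 810 tested entries, 1 point each. The 22 rises are red, the 10 falls blue and the 778 others grey; miR-6069 is drawn at its fitted value, which rests on 0 counts at 3 h, and most other rises of over 2 on the log2 scale lie under 100 CPM.

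Of the 10 falls, 5 were the less abundant arms of well-known hairpins. miR-335-3p, from an intron of the imprinted gene MEST (chr7:130496111-130496204, GRCh38, plus strand), had 14.8 and 9.25 CPM at PA 24 h, against 38.0 and 32.8 CPM at PA 3 h (log2 fold change -1.495 ± 0.30 SE, adjusted p = 0.0147). miR-146a-3p, from a hairpin in an exon of MIR3142HG that NF-kB induces, had 71.0 and 72.3 CPM at PA 24 h, against 145 and 160 CPM at PA 3 h (-1.09 ± 0.26, adjusted p = 0.0277). let-7a-2-3p, from an intron of MIR100HG, had 58.5 and 38.7 CPM at PA 24 h, against 96.9 and 108 CPM at PA 3 h (-1.05 ± 0.25, adjusted p = 0.0277). In these 3 each 24 h library was well below both 3 h libraries.

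let-7i-3p fell least, with 289 and 265 CPM at PA 24 h, against 434 and 421 CPM at PA 3 h (-0.62 ± 0.16 on the log2 scale, adjusted p = 0.0433). miR-20a-3p belongs to the MYC-driven miR-17-92 cluster in MIR17HG and had 44.5 and 21.0 CPM at PA 24 h, against 80.6 and 65.7 CPM at PA 3 h (-1.10 ± 0.29, adjusted p = 0.0433). Both 24 h libraries of either miRNA lay below the 3 h libraries. Without PA 24 h A the log2 fold change of miR-20a-3p was -1.90 and passed (adjusted p = 0.005). Each of the 5 calls was lost when PA 24 h B, PA 3 h A or PA 3 h B was left out. With only the 4 libraries compared miR-146a-3p was the 1 of them that passed, and with only the 6 PA libraries let-7a-2-3p, let-7i-3p and miR-20a-3p did not. miR-20a-3p also failed with relative log expression size factors, and let-7i-3p with no filter on low counts. The call of miR-146a-3p was also lost without PA 24 h A, and those of let-7i-3p and miR-20a-3p also without any 1 of the 4 DMSO libraries of 24 h and 3 h.

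The other falls were of miR-4455, miR-4521, miR-6715b-3p, chr16_31211 and chr19_36629. miR-4455, of 17 bases, had 44.9 and 59.7 CPM at PA 24 h, against 132 and 124 CPM at PA 3 h (log2 fold change -1.31 ± 0.24 SE, adjusted p = 0.00744). chr19_36629 was the most abundant of the falls, with 646 and 714 CPM at PA 24 h, against 1495 and 1412 CPM at PA 3 h (-1.10 ± 0.18, adjusted p = 0.00312). Neither overlapped between the times, chr19_36629 lost its call only without PA 3 h A (adjusted p = 0.0622), and miR-4455 lost it when PA 3 h A or B was left out. The log2 fold changes of the remaining 3 were -1.45 for miR-4521, -1.38 for miR-6715b-3p and -1.25 for chr16_31211. Each lost its call when PA 24 h A, PA 3 h A or PA 3 h B was left out. miR-4521 and miR-6715b-3p lost it also without PA 24 h B, with only the 4 libraries compared and with only the 6 PA libraries. miR-6715b-3p lost it also without DMSO 3 h B.

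For 9 hairpins with at least 1 arm that passed, the other arm was also tested. The miR-1271 arms passed together, and in the other 8 the second arm did not pass. let-7a-5p, set against let-7a-2-3p, is made from 3 hairpins, so its level is not that of the let-7a-2 hairpin alone. let-7i-5p, the main product of its hairpin and a repressor of RAS and HMGA2, had a mean of 12251 ± 170 CPM at PA 24 h and 11498 ± 301 CPM at PA 3 h (SD, n = 2 each; log2 fold change 0.09 ± 0.14 SE). miR-146a-5p, which represses TRAF6 and IRAK1, had 38103 and 39712 CPM at PA 24 h, against 32181 and 34498 CPM at PA 3 h (0.22 ± 0.14, adjusted p = 0.463), so its fitted change had the opposite sign to that of miR-146a-3p. miR-20a-5p had 3527 and 2222 CPM at PA 24 h, against 4630 and 4390 CPM at PA 3 h (-0.65 ± 0.21, adjusted p = 0.103). The difference between the arms was not tested, and an arm that missed the threshold is not shown to have held its level.

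**Figure D3:**
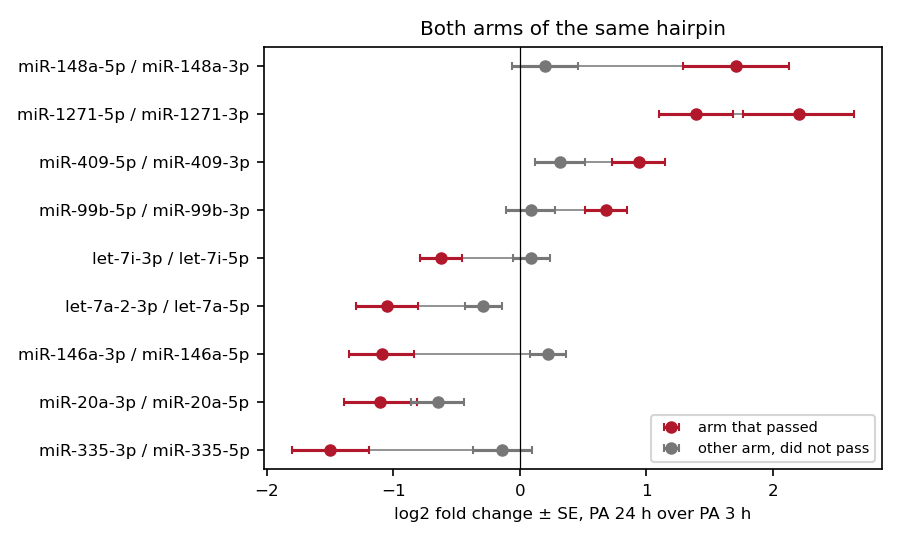
Log2 fold change (± SE) of PA 24 h over PA 3 h for both arms of 9 hairpins, with the arm that passed in red and the arm that did not in grey (let-7a-5p comes from 3 hairpins). miR-1271 has both arms in red, and the grey arms lie between -0.65 for miR-20a-5p and 0.32 for miR-409-3p.

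The 10 largest entries of each of the 4 libraries, ranked within that library, held 62.7% to 64.4% of its counts. None of the 10 miRNAs most abundant by mean over the 4 libraries passed in the edgeR test on all 14 libraries. Of these 10, 4 were higher and 2 lower at an unadjusted p under 0.05. DESeq2 called none of them and limma-voom 1 higher. miR-21-5p, which represses PDCD4, had 164523 and 158776 CPM at PA 24 h, against 224140 and 207789 CPM at PA 3 h. Its libraries did not overlap, with a log2 fold change of -0.42 ± 0.15 (SE, adjusted p = 0.167), and its fitted change in DMSO was -0.47. miR-27a-3p had 104997 and 93527 CPM at PA 24 h, against 67943 and 77650 CPM at PA 3 h (0.45 ± 0.14, adjusted p = 0.088). It passed with a minimum count of 50 (edgeR adjusted p = 0.04) and when DMSO 12 h A or B alone was left out. With both DMSO 12 h libraries left out, miR-27a-3p did not pass. miR-10a-5p, from the HOXB cluster, had 46706 and 30068 CPM at PA 24 h, against 25413 and 26768 CPM at PA 3 h (0.56 ± 0.18, adjusted p = 0.104). Its log2 fold change was 0.81 without PA 24 h B, where it passed (adjusted p = 0.0348), and 0.093 without PA 24 h A (adjusted p = 0.857). The other 7 had log2 fold changes between -0.29 (miR-29a-3p) and 0.35 (miR-100-5p). miR-210-3p, the classic hypoxia-induced miRNA, had 2483 and 2464 CPM at PA 24 h, against 1487 and 1664 CPM at PA 3 h (0.65 ± 0.18, adjusted p = 0.0589), and 0.61 in DMSO.

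Families and clusters mostly held no member that passed. In the miR-17-92 cluster and its paralogs, which carry miR-17-5p, miR-20a-5p, miR-92a-3p and related growth-promoting miRNAs, 0 of 11 tested guide arms passed in edgeR, 5 were lower at an unadjusted p under 0.05, and DESeq2 and limma-voom called 1 lower each. Their median log2 fold change was -0.47 within PA, against 0.03 over all tested entries, and 9 of the 11 were negative. In DMSO the median was 0.23 and 10 of the 11 were positive. miR-92a-3p had 1745 and 2028 CPM at PA 24 h, against 3199 and 2591 CPM at PA 3 h (-0.62 ± 0.18, adjusted p = 0.0597). miR-17-5p had 1657 and 1265 CPM at PA 24 h, against 2014 and 2220 CPM at PA 3 h (-0.53 ± 0.19, adjusted p = 0.135). The libraries of both were apart. Without PA 24 h A the median of the 11 was -0.73 and 2 passed as lower, and without PA 24 h B it was -0.29.

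In the miR-183 cluster, 0 of 3 passed in edgeR, 2 were higher at an unadjusted p under 0.05, and DESeq2 and limma-voom called 1 higher each. miR-183-5p had 3539 and 2570 CPM at PA 24 h, against 1625 and 1897 CPM at PA 3 h (0.80 ± 0.23, adjusted p = 0.0589), and miR-182-5p had a log2 fold change of -0.11. The median of 0.65 was -0.05 without PA 24 h A and 0.97 without PA 24 h B. All 5 members of the miR-99/100 and miR-125 families had positive values (median 0.35), and miR-99b-5p was the 1 that passed.

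The large imprinted cluster at 14q32, which is expressed from the maternal chromosome, had 58 tested members. Within PA 1 passed, miR-409-5p, 9 were higher and 1 lower at an unadjusted p under 0.05, and the median was 0.05, or -0.02 with total-count scaling. DESeq2 called 3 higher and limma-voom 1. Without PA 24 h A the median was -0.094, with 0 higher and 1 lower. In DMSO the median was 0.39, 50 of the 58 were positive and 1 passed as higher, miR-411-3p. miR-411-3p had 85.0 and 82.4 CPM at PA 24 h, against 81.4 and 77.2 CPM at PA 3 h, while in DMSO it had 128 and 130 CPM at 24 h, against 74.1 and 67.2 CPM at 3 h. The difference between its 2 changes did not pass (-0.79 ± 0.27 on the log2 scale, adjusted p = 0.221).

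Of 10 tested miRNAs embedded in the HOX clusters, miR-7704 passed and the median was 0.10, or -0.0079 without PA 24 h A. The 3 tested miR-29 family members, which target collagen and other matrix genes, had a median of -0.38 within PA and -0.23 in DMSO, and 2 were lower at an unadjusted p under 0.05. The 3 tested entries of miR-7 and miR-3529 had a median of -0.56 within PA and 0.32 in DMSO, with miR-3529-3p at 1547 and 911 CPM at PA 24 h, against 1976 and 2037 CPM at PA 3 h (-0.71 ± 0.20, adjusted p = 0.0633). None of either group passed in edgeR. DESeq2 and limma-voom each called 1 of the miR-7 group lower and none of the miR-29 family.

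Lists named for a pathway or disease did not pass either. Of 7 tested p53-responsive miRNAs, 12 induced by NF-kB and inflammation, 13 reported high and 14 reported low or growth-suppressive in pancreatic cancer, 0 passed in edgeR, and 1, 2, 4 and 1 of them had an unadjusted p under 0.05. DESeq2 and limma-voom called 1 and 2 of those reported high and none of the other lists. Their medians were 0.15, -0.06, -0.02 and 0.18. The last 3 changed sign with 1 library left out. They became 0.035 (NF-kB) and 0.105 (reported high) without PA 24 h B, and -0.097 (reported low) without PA 24 h A. The median over all tested entries also changed sign, to -0.062 without PA 24 h B and to -0.079 without PA 24 h A. The let-7, miR-200, miR-30, miR-15/16, miR-181, miR-130, miR-23/27/24 and miR-221 groups had medians between -0.33 (miR-130 family) and 0.21 (miR-200 family). No listed member of these groups passed in edgeR. The let-7 list leaves out let-7i-3p and let-7a-2-3p, and the NF-kB list leaves out miR-146a-3p, all of which passed as falls. The miR-200 median was -0.026 without PA 24 h A, the let-7 median of -0.06 was 0.012 without PA 24 h B, and the miR-181 median of -0.01 was 0.079 without it. At an unadjusted p under 0.05, 1 member each of the let-7, miR-130 and miR-221 groups was lower and 2 of the miR-23/27/24 group were higher, of which limma-voom called 1 and DESeq2 none. Both tools called miR-210-3p higher. The miR-33 miRNAs hosted in the SREBF genes, regulators of cholesterol export, had a median of 0.28 over 4 tested members (-0.01 without PA 24 h A), the CLCN5-hosted cluster 0.01 over 13 (-0.07 with total-count scaling and -0.18 without PA 24 h A) and the miR-548 family -0.08 over 29. In these 3 lists none passed with any of the 3 tools, and 2, 3 and 2 members were higher and 0, 0 and 1 lower at an unadjusted p under 0.05.

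**Figure D4:**
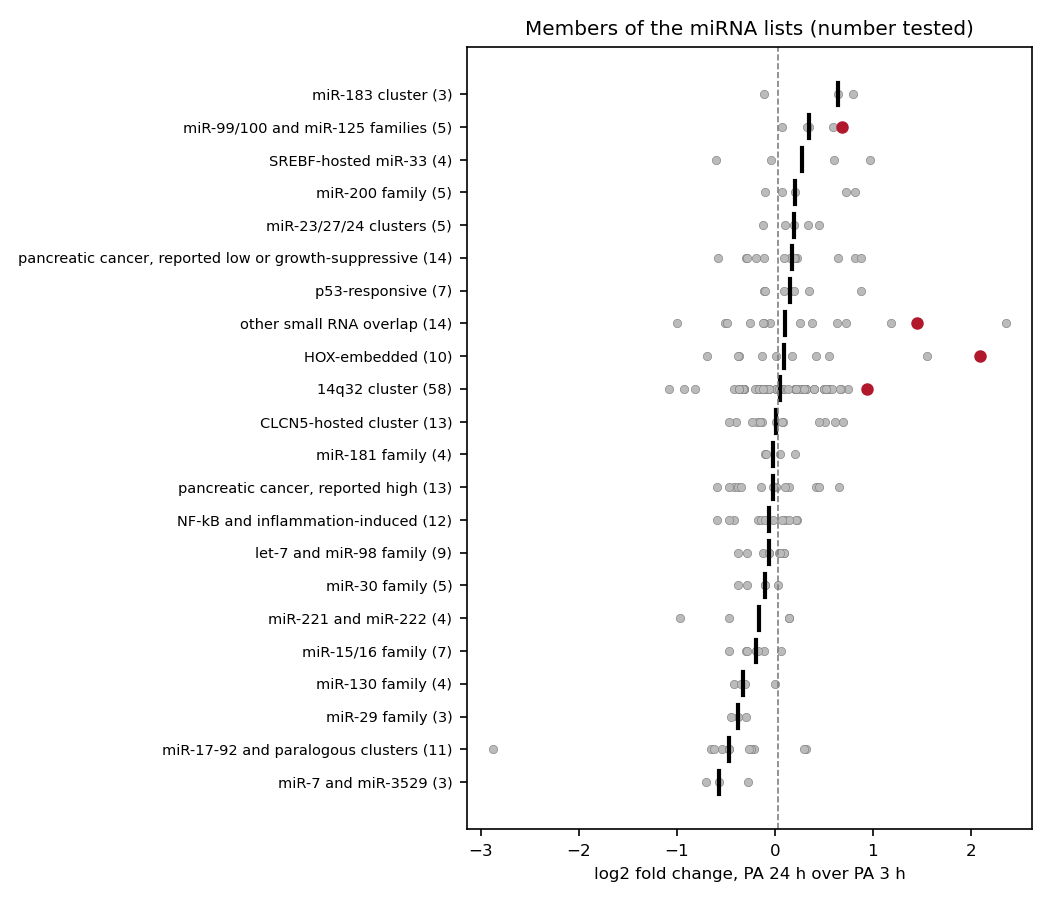
Log2 fold change of PA 24 h over PA 3 h for the tested members of each list, 1 grey point per member and red where it passed, with the number tested in brackets. Black bars are list medians, which run from -0.56 (miR-7 and miR-3529) to 0.65 (miR-183 cluster), and the dashed line is the median of all tested entries at 0.03.

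The 12 h libraries of PA, which no test above compared, show how much of each difference was there by mid-course. That part was measured on means of log2 CPM, with a prior count of 2. For the rises, the 12 h mean had covered a median of 21.0% of the log2 distance from 3 to 24 h, and in 17 of the 22 it was below 50%. For the falls the median was 53.3%, and the 12 h mean lay between the 3 h and 24 h means in 10 of 10 falls and 16 of 22 rises, a count that choosing entries for a large 24 h against 3 h difference favours. chr8_19924 averaged 385 ± 107 CPM at 3 h, 632 ± 3.63 CPM at 12 h and 9007 ± 2552 CPM at 24 h (SD, n = 2 each). On the log2 scale, not in CPM, it was 16.3% of the way by 12 h. miR-3182 averaged 94.3, 97.1 and 281 CPM at 3, 12 and 24 h. By contrast miR-4454 averaged 3123, 7734 and 8546 CPM, with 85.3% of its log2 rise in place at 12 h, and miR-148a-5p averaged 7.78, 24.1 and 25.9 CPM. chr13_28163 did not move in one direction, with 116, 72.4 and 327 CPM.

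The same time step in DMSO shares no library with the PA comparison. There 10 entries passed (1.23%), 2 higher at 24 h (0.247%) and 8 lower (0.988%), and 82 had an unadjusted p under 0.05. The order of the counts in PA and DMSO depended on the fit: with only the 4 libraries of each comparison, 20 entries passed in PA and 41 in DMSO, 16 of the 41 higher at 24 h and 25 lower. chr13_28163 was the 1 entry that passed in both, in opposite directions. It had 54.9 and 35.5 CPM at DMSO 24 h, against 119 and 109 CPM at DMSO 3 h (log2 fold change -1.33 ± 0.25 SE, adjusted p = 0.0294). Of the 22 PA rises, 10 had a positive fitted change in DMSO, and of the 10 PA falls, 10 had a negative one. Over all 810 tested entries, 392 had a positive fitted change in DMSO and 417 a negative one. The count in DMSO was 0 when DMSO 24 h A or B was left out, with 67 entries at an unadjusted p under 0.05 in the first case and 56 in the second. It was 2 when DMSO 3 h A was left out and 1 when DMSO 3 h B was. Leaving out PA 3 h A or B gave 5, leaving out PA 24 h A or B gave 16, and leaving out DMSO 12 h A gave 24 and DMSO 12 h B 21.

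Whether the change from 3 to 24 h differed between PA and DMSO was tested directly, as the PA change minus the DMSO change. It passed in 10 of the 810 entries (1.23%), each with a positive difference (1.23%), and in 0 with a negative one (0%). At an unadjusted p under 0.05 there were 61 positive and 40 negative differences, and DESeq2 called 16 positive and 1 negative and limma-voom 3 and 0. With total-count scaling 7 positive and 3 negative differences passed. Of the 32 entries that passed within PA, 6 also passed here: chr8_19924, chr13_28163, miR-6069, miR-549a, miR-3182 and chr17_33942. For the other 26, a change within PA is not shown to differ from the change in DMSO.

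chr8_19924 had the largest of these differences among entries with counts in every library (5.97 ± 0.49 on the log2 scale, adjusted p = 3.15e-06), and chr13_28163 followed in p (2.83 ± 0.35, adjusted p = 0.000252). miR-549a had 8.61 and 9.53 CPM at DMSO 24 h, against 10.7 and 11.7 CPM at DMSO 3 h, and its difference was 2.70 ± 0.52 (adjusted p = 0.0189). miR-3182 had 74.2 and 77.6 CPM at DMSO 24 h, against 77.9 and 96.5 CPM at DMSO 3 h, and its difference was 1.76 ± 0.37 (adjusted p = 0.0249). Its DMSO libraries overlapped. The other 4 of the 10 had not passed within PA.

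Those 4 were miR-6750-5p, miR-372-5p, miR-4310 and chr1_2271. miR-6750-5p had 13.2 and 22.7 CPM at PA 24 h, against 4.18 and 12.2 CPM at PA 3 h, while it had 1.23 and 1.73 CPM at DMSO 24 h, against 8.78 and 25.1 CPM at DMSO 3 h (difference 4.48 ± 0.88, adjusted p = 0.0192). miR-372-5p, from the stem-cell cluster miR-371-373, had 4.01 and 8.41 CPM at PA 24 h, against 1.67 and 2.37 CPM at PA 3 h. In DMSO it had 0 counts at 24 h and 21 counts at 3 h. Taking a floor of 3 counts over the 24 h group, miR-372-5p was 7.68-fold lower at DMSO 24 h. The counting interval of the ratio of 24 h to 3 h, which also takes in the error of the 21 counts, reaches 0.175. miR-4310 had 103 and 242 CPM at PA 24 h, against 87.3 and 91.1 CPM at PA 3 h, and 31.2 and 34.2 CPM at DMSO 24 h, against 97.8 and 77.2 CPM at DMSO 3 h (difference 2.36 ± 0.51, adjusted p = 0.0289). In these 4 the values at PA 24 h were above those at DMSO 24 h in every library. The calls in this test numbered 2 without PA 24 h B and 20 without PA 24 h A (8 of the 10 among them). They numbered 2 and 3 with PA 3 h A and B left out, 3 and 2 with DMSO 24 h A and B left out, and 3 and 4 with DMSO 3 h A and B left out. chr8_19924 and chr13_28163 passed in every one of these. With limma-voom, chr8_19924, chr13_28163 and miR-549a passed, and with total-count scaling miR-3182, miR-4310 and chr1_2271 did not.

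**Figure D5:**
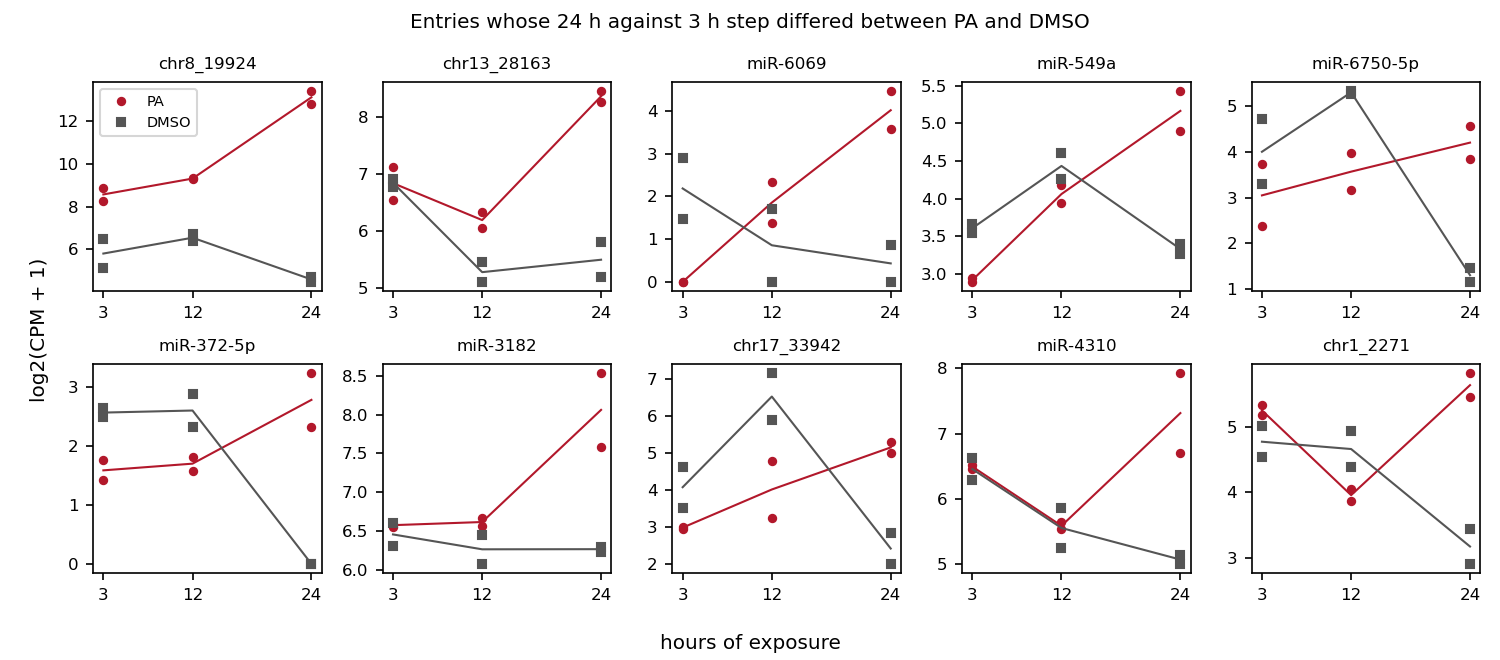
Levels of the 10 entries whose change from 3 to 24 h differed between PA and DMSO, as log2(CPM + 1) against hours of exposure, with 1 point per library and lines through the means (PA red circles, DMSO grey squares). In each panel the PA points at 24 h lie above the DMSO points at 24 h, and in 5 of them (miR-549a, miR-6750-5p, miR-372-5p, chr17_33942 and chr1_2271) the DMSO points at 12 h lie above the PA points at 12 h.

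Sequence features of the named entries that passed are given as a description. The 14 rises with a sequence had a median length of 21.5 bases and a median GC content of 53.7%, the 8 that fell had 22 bases and 47.9%, and all 597 tested entries with a sequence had 22 bases and 47.6%. The range among the rises was wide, from 33.3% GC in miR-4720-3p to 84.2% in miR-7704. Of the 14, 3 shared a seed with another tested miRNA, and of the 597, 147 did. miR-1271-3p shares the seed GUGCCUG with miR-550a-5p, which had a log2 fold change of 0.25 ± 0.35 (SE, adjusted p = 0.791). let-7a-2-3p shares UGUACAG with let-7g-3p, which had -0.14 ± 0.65 (adjusted p = 0.934). Neither relative passed.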

How the data were processed

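The count table that the authors deposited, with raw whole-number counts for each miRNA entry, was the input. A TPM table was not used. The submitters' processing notes name bcl2fastq, Bowtie and edgeR and the build GRCh38. Versions, the roles of these tools, annotation, strand use and the handling of reads with several matches are not given in the sources used here. Each of the 14 columns carried the title of its own library, with 0 columns unmatched. Entries with identical counts in every library, such as chr4_10821 and KI270790.1_41873, cannot be told apart.

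From the counts, edgeR 4.0.16 in R 4.3.3 fitted all 14 libraries by 7 groups of 2 (quasi-likelihood F test, robust, TMM), on entries kept by filterByExpr (group-wise, minimum count 10, minimum total 15). These were 810 entries, 682 named and 128 unnamed. P-values were adjusted over the 810 by Benjamini-Hochberg, and an entry passed under 0.05. SE values are those of the fit, and the common biological coefficient of variation was 0.203. For CPM, library totals were multiplied by their TMM factors. Where a group had 0 counts, its floor was 3 counts, summed over its libraries. Such floors and counting intervals cover counting error only, since copies made by PCR are not independent molecules. Alternatives were other scalings, filters, DESeq2 1.42.0, limma-voom (limma 3.58.1), subsets of libraries, a replicate block and each library left out. The tested entries were held at the 810 except where the filter, the entries or the subset of libraries was changed. Same-lettered libraries did not deviate together: over 21 pairs of groups, the correlation of their deviations ran from -0.17 to 0.11, so the letters were not used as pairs.

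Entries were named by this rule: the 10 largest rises and falls that passed without overlap, the 10 most abundant that passed, the 10 most abundant in all, list members, the 10 smallest adjusted p of the difference from DMSO, and the other arm or same-seed relatives of these. The remaining entries that passed are also named, chosen after their values were seen. The members and lists were chosen with earlier results of these data known. Hairpin positions and overlaps come from GENCODE and RefSeq on GRCh38.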

Additional observations from a re-analysis of the deposited data

Results flagged for a closer look

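In 10 entries the change from 3 to 24 h differed between PA and DMSO in edgeR's test of that difference (adjusted p under 0.05), and each is given as the PA change minus the DMSO change on the log2 scale. It was 5.97 for chr8_19924, 2.83 for chr13_28163, 2.70 for miR-549a, 1.76 for miR-3182, 4.24 for chr17_33942 (adjusted p = 0.0249), 2.36 for miR-4310, 4.48 for miR-6750-5p and 2.13 for chr1_2271 (adjusted p = 0.0335). For miR-6069 (fitted 11.17, adjusted p = 0.0103) and miR-372-5p (fitted 7.84, adjusted p = 0.0249) a group had 0 counts, so the fitted value depends on the model and is no bound. miR-6069 had 2 counts at DMSO 24 h and 20 counts at DMSO 3 h, a ratio of 0.0912 in CPM with a counting interval of 0.0103 to 0.375. chr1_2271 had 55.7 and 42.9 CPM at PA 24 h, against 39.3 and 35.2 CPM at PA 3 h, and 9.84 and 6.499 CPM at DMSO 24 h, against 31.3 and 22.2 CPM at DMSO 3 h. Its libraries were apart in both treatments, with opposite directions. Its call was lost with total counts, with a minimum count of 50 and with limma-voom, and it held in 4 of the 14 fits with 1 library left out.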

How the results depend on the processing

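Within PA, 32 entries passed. The count was 33 with relative log expression size factors, 32 with total counts, 42 with no filter, 33 with a minimum count of 50, 43 with DESeq2, 38 with limma-voom and 31 with only the 6 PA libraries. It was 52 without both DMSO 12 h libraries, 19 with named entries only and 20 with only the 4 libraries compared. With 1 library left out at a time it ran from 1 to 49. In DMSO, 10 passed, and the count was 18 with no filter, 6 with a minimum count of 50, 20 with DESeq2, 6 with limma-voom, 21 without both DMSO 12 h libraries, 2 with named entries only and 41 with only its own 4 libraries; with 1 library left out it ran from 0 to 24. For the difference, 10 passed, and the count was 21 with no filter, 5 with a minimum count of 50, 17 with DESeq2, 3 with limma-voom and 6 with named entries only; with 1 library left out it ran from 2 to 20. By construction, fewer samples enter where libraries are dropped. The number of entries tested also changes with the filter, to 2848 with no filter and 444 with a minimum count of 50. Otherwise the cause was not tested.

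With the letters as a replicate block, 34, 11 and 9 entries passed in the 3 tests; miR-1261 within PA and chr1_2271 in the difference lost their calls. Of the 32 calls within PA, chr8_19924 passed in every setting and 0 changed sign. Signs did turn for 2 abundant miRNAs that had not passed. miR-22-3p (-0.02; -0.19 to 0.023 with 1 library left out) was 0.0056 with a minimum count of 50, 0.016 with only the 4 libraries, 0.017 with only the 6 PA libraries and 0.0093 without PA 24 h B. miR-21-3p (-0.07; -0.32 to 0.24 with 1 library left out) was 0.023 without PA 24 h B. PA 24 h B, with 1236935 counts, was the least deep of the 4 libraries.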
